A study of Saccharomyces cerevisiae with 16 samples.

Results

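The 10 genes described here bring sulfate or methionine into the budding yeast cell, turn sulfate into methionine or, for MET28, help to regulate sulfur genes. They are SUL1, SUL2, MET3, MET5, MET6, MET10, MET14, MET16, MET28 and MUP1, chosen by symbol from 6002 annotated protein-coding nuclear genes. A peak was counted for a gene when it overlapped, by at least 1 bp, the gene body or the 500 bp on either side of it. This gave 106 of the 30113 peaks on nuclear chromosomes, 11 to 15 in each library.

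The peaks mark H3K4me3, the form of histone H3 with 3 methyl groups on its lysine 4, which is found at the 5′ ends of transcribed yeast genes. It was measured by CUT&RUN, in which an antibody tethers a nuclease that releases the chromatin it is bound to. All strains were BY4741, a haploid laboratory strain of mating type a. Each carried synthetic human HPRT1 sequence or its HPRT1R version, on a yeast artificial chromosome (YAC) in one configuration and inserted into chromosome XI in the other, with 2 libraries in each of the 4 groups. The protocols in the labels give SC-Leu, a synthetic medium lacking leucine, for the YAC strains and YPD, a rich medium, for those with the insert, both at 30 °C for 6 hours after dilution to an optical density of 0.1. Configuration and medium thus changed together and cannot be told apart, and "YAC" and "integrated" below stand for both. The 8 IgG samples were not analysed here. Whether replicates were separate cultures is not stated in the labels, and p-values therefore cover only the spread among these libraries, which could be technical.

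Sulfate enters yeast through permeases, is activated with ATP, reduced to sulfite and then to sulfide, and is joined to a carbon chain to form homocysteine, which is methylated to methionine. The genes of this route are switched on by the activator Met4 with its DNA-binding partners when methionine and cysteine run low, and are kept low when methionine is plentiful. Methionine is also the precursor of S-adenosylmethionine, the methyl donor for histone methylation. BY4741 is known to carry a deletion of MET17 (also called MET15), the gene of the enzyme that joins sulfide to the carbon chain, so that it needs methionine or a like sulfur source. No library had a peak in MET17 or within 500 bp of it.

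The libraries held 3377 to 3963 native peaks with median widths of 540 to 699 bp, which covered 22.8 to 26.0% of the nuclear genome. Read totals are not part of peak lists, but the read pileup at a summit and the pileup that the caller expected there could be solved from the deposited fold and p-value. The 10th percentile of the expected pileup, a measure of local depth, was 76.2 to 98.9 reads. HPRT1R YAC replicate 1 stood apart, with the fewest native peaks (3377), the highest expected pileup (98.9 reads) and the lowest median fold (1.86). It was kept, and the differences in coverage at SUL2 are also given without it. Folds are the authors' own values, and their percentile is the share of native peaks of the same library with a lower fold. In such bulk samples, a mark on fewer cells and less of the mark per cell cannot be told apart.

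The 10 genes differed widely in whether their starts lay under a peak. A start peak is here a peak that overlapped the window from 200 bp before to 500 bp after the annotated gene start. MET14, MET16, MET5, MET10, MET6, MET28 and MUP1 had a start peak in 8 of 8 libraries, 7 of 10 genes against 66.5% of all genes. SUL1 and MET3 had none in any library, as did 14.8% of all genes. SUL2 had one in 4 of 4 YAC and 0 of 4 integrated libraries. That pattern was found in 0.15% of all genes (9 genes), and the reverse one in 0.3% (18 genes).

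A start peak did not always have its highest point at the gene. Of the 106 peaks, 70 overlapped the start window of the gene they were counted for, and 36 did not. Of these 36, 35 overlapped the start window of another gene, and 1, inside SUL2, overlapped no start window. The summit lay inside the gene body for 35 of the 106. Shares of these kinds over all genes are not given, so that these counts only describe the 106 peaks. MET14, MET5 and MET10 had a summit in their start window in 8 of 8 libraries, 3 of 10 genes against 28.8% of all genes, and MET6 in 7. MET16, MET28 and MUP1 had none there in any library. The summits of the MET28 and MUP1 start peaks lay farther upstream, and those of MET16 either upstream, in NUT2, or, for the second peak in 5 libraries, 716 to 754 bp into the gene.

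**Figure D1:**
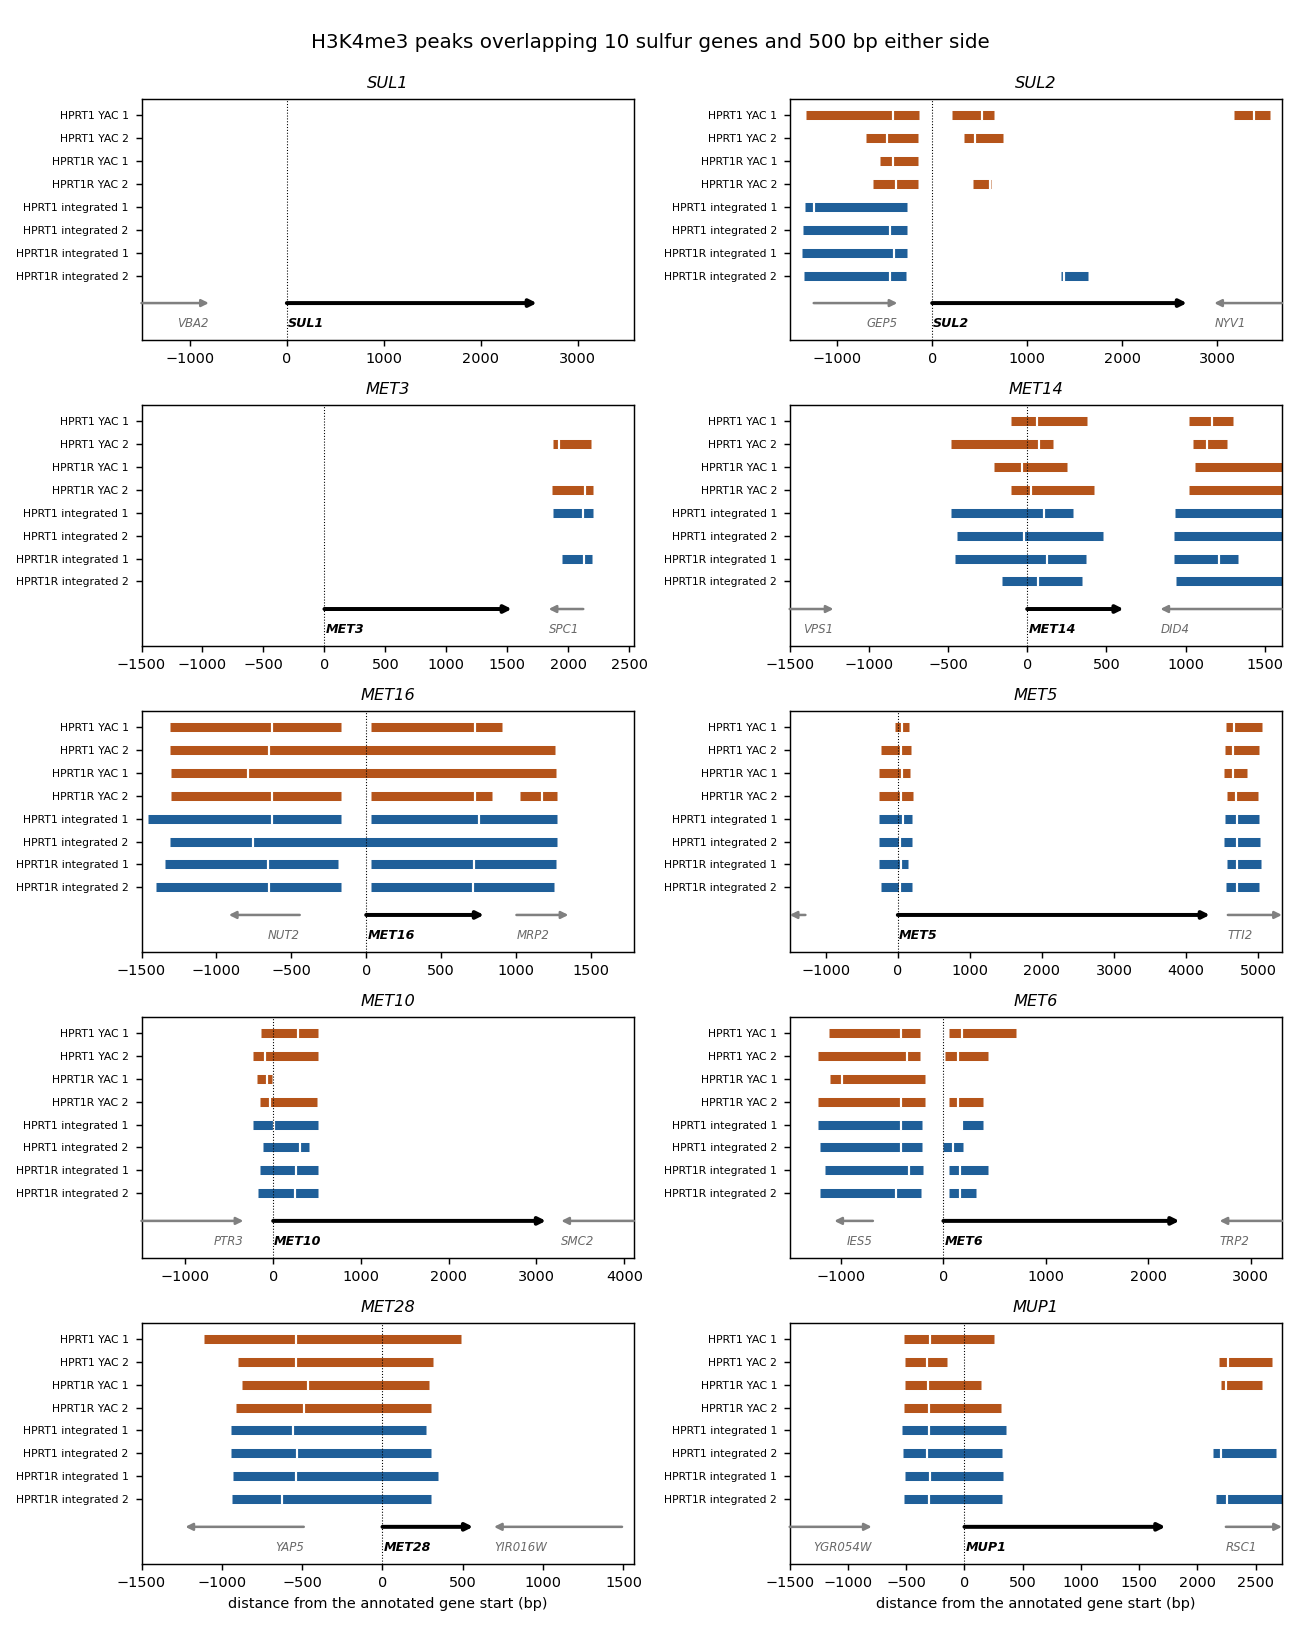
H3K4me3 peaks (bars) at the 10 genes in each of the 8 libraries, drawn by distance in bp from the annotated gene start in the direction of the gene, with YAC libraries in orange, integrated libraries in blue, summits as white ticks and genes as arrows. SUL1 has no peak and MET3 has none at its start, MET5, MET10 and MET14 have peaks over their own starts, the peaks of MET28 and MUP1 have their summits upstream, and MET16 has a summit upstream and, in 5 libraries, a second one 716 to 754 bp after its start.

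The sulfate permeases SUL1 and SUL2 did not look alike. SUL1 (YBR294W, chromosome II, 789235 to 791814, plus strand), a high-affinity sulfate permease, had no peak within its body or flanks in any of the 8 libraries. Its closest neighbours, VBA2 and PCA1, end and begin 804 and 1034 bp away. The depth where no peak was called is unknown, so that a mark below the caller's limit would not be seen.

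SUL2 (YLR092W, chromosome XII, 323544 to 326225, plus strand), the other high-affinity sulfate permease, lies 365 bp downstream of GEP5, a gene of mitochondrial genome maintenance that runs the same way. All 8 libraries had a peak whose summit lay inside GEP5, with folds of 1.53 to 2.81. This peak reached closer to the SUL2 start in the YAC libraries. It ended 139 and 150 bp before the start in HPRT1 YAC replicates 1 and 2, and 150 bp before it in both HPRT1R YAC libraries. In the integrated libraries it ended 261 and 267 bp before the start with HPRT1, and 267 and 271 bp before it with HPRT1R. The groups did not overlap, with mean ends at −147 ± 5.5 bp (SD, n = 4) against −266 ± 4.12 bp (SD, n = 4), 119 bp apart. An exact two-sided permutation test gave p = 0.0286, the smallest that 4 against 4 can give, for a measure chosen after its values were seen. The share of all genes with such a difference in a neighbour's peak was not computed, and for the downstream ends of start peaks 4.56% of genes had no overlap between configurations.

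The far end of the same peak also differed. It began 1330, 698, 549 and 627 bp before the SUL2 start in HPRT1 YAC replicates 1 and 2 and HPRT1R YAC replicates 1 and 2, in that order. In the integrated libraries it began 1338 to 1373 bp before the start, so that it spanned the whole of GEP5. In 3 of 4 YAC libraries it covered only the later portion of that gene. GEP5 nevertheless had a start peak in every library. In those 3 a separate peak, outside the SUL2 flank, thus lay at the GEP5 start.

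A second, weak peak lay inside the SUL2 gene in 3 of 4 YAC libraries. It ran from 206 to 654 bp after the start in HPRT1 YAC replicate 1, from 336 to 750 bp in HPRT1 YAC replicate 2 and from 434 to 624 bp in HPRT1R YAC replicate 2. The pileups were 123, 136 and 105 reads where 88.5, 92.7 and 81.0 were expected, and the folds of 1.39, 1.46 and 1.29 stood at the 1.94th, 5.49th and 0.104th percentile of their libraries. These are among the weakest peaks of each list, with −log10 q of 2.90, 4.18 and 1.66. HPRT1R YAC replicate 1 and all 4 integrated libraries had no peak there, and HPRT1R integrated replicate 2 had one deeper in the gene, from 1358 to 1636 bp.

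Over the start window, peaks covered 50.9 and 30.8% with the HPRT1 YAC, 7.28 and 16.8% with the HPRT1R YAC and 0% in all 4 integrated libraries. Start windows covered more in every YAC than in any integrated library were 0.754% of the 4777 tested. The difference was 26.5 percentage points (SE 7.58, limma, unadjusted p = 0.0116), which did not pass the adjustment over all genes (adjusted p = 0.438). Peaks with a −log10 q under 5, the weak inner ones included, made up most of it, and without them the difference was 7.67 points (adjusted p = 0.449). With all peaks but without HPRT1R YAC replicate 1, the difference was 31.3 points. The presence in 4 of 4 against 0 of 4 libraries was the same without any 1 library. It was lost when 100 bp of overlap were asked for, since peaks reached 51 bp into the window in HPRT1R YAC replicate 1 and 51 and 67 bp in HPRT1R YAC replicate 2.

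MUP1 (YGR055W, chromosome VII, 599417 to 601141, plus strand), the high-affinity methionine permease, had 1 strong peak that began in the gap upstream of the gene. Its summit lay 292 to 324 bp before the start in all 8 libraries, with folds of 2.07 to 3.32 and pileups of 206 to 263 reads. Its upstream end was also steady, 507 to 538 bp before the start. The end toward the gene varied. It lay 256 bp after the start in HPRT1 YAC replicate 1, 148 bp before it in HPRT1 YAC replicate 2, and 145 and 312 bp after it in the HPRT1R YAC libraries. In the integrated libraries it lay 359 and 322 bp after the start with HPRT1 and 328 and 321 bp after it with HPRT1R. All integrated libraries reached farther into the gene than any YAC library.

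The mean end was at 141 ± 205 bp (SD, n = 4) with the YAC and 332 ± 17.9 bp (SD, n = 4) integrated. The difference of −191 bp (SE 97.01, limma) had an unadjusted p of 0.0952 and an adjusted p of 0.846. It was −91.4 bp without HPRT1 YAC replicate 2. Downstream ends that did not overlap between configurations were found in 4.56% of the 3991 genes with a start peak in all libraries. Coverage of the MUP1 start window was 65.2, 7.56, 49.4 and 73.2% with the YAC, in the same order, and 74.5 to 79.9% integrated, and 4.14% of genes had all YAC libraries below all integrated ones. Past the 3′ end of MUP1, 2 YAC and 2 integrated libraries had a weak peak at the start of RSC1, which encodes a subunit of the chromatin remodeller RSC.

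**Figure D2:**
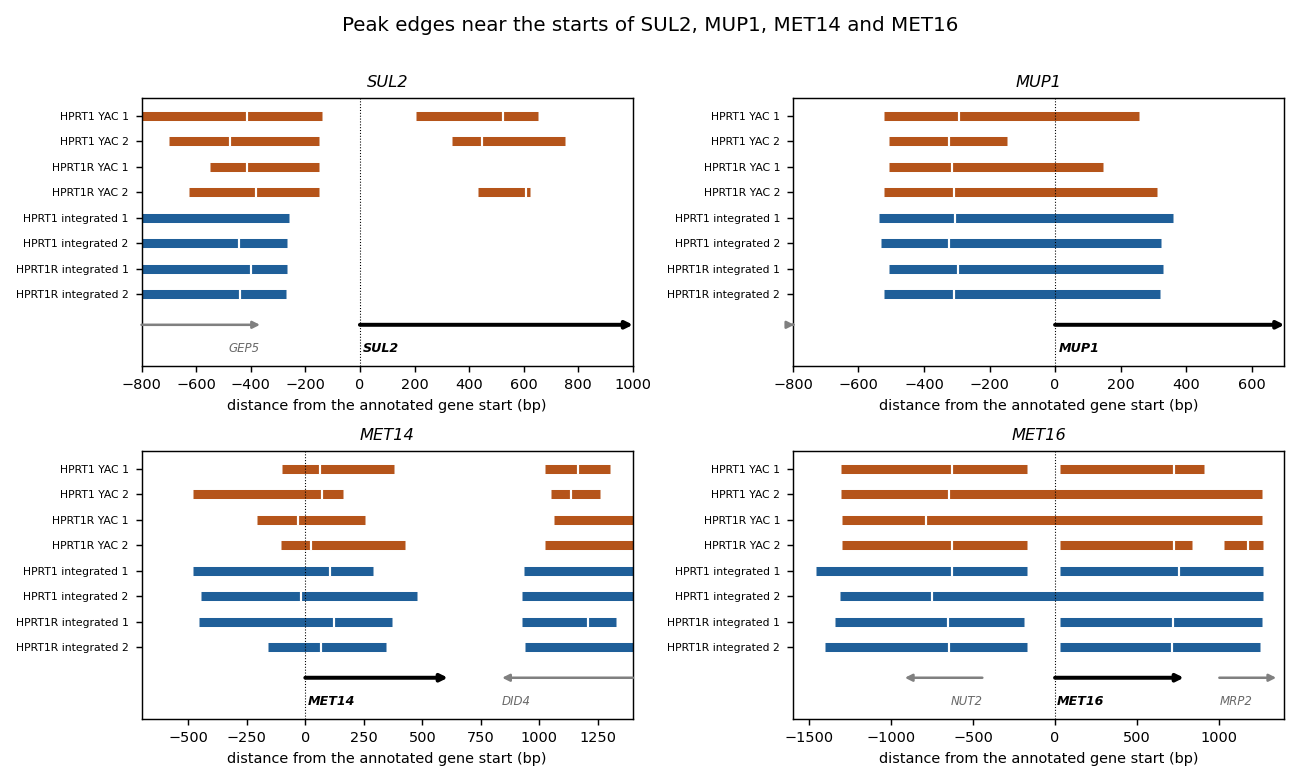
Peaks near the starts of SUL2, MUP1, MET14 and MET16, drawn by distance in bp from the gene start, with YAC libraries in orange and integrated libraries in blue. At SUL2 the upstream peak ends 139 to 150 bp before the start in YAC and 261 to 271 bp before it in integrated libraries, and at MUP1 the YAC peaks end between −148 and 312 bp and the integrated ones between 321 and 359 bp.

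MET3 (YJR010W, chromosome X, 456239 to 457774, plus strand) encodes ATP sulfurylase, which activates sulfate in the first step of assimilation. It had no peak at its start or in its body in any library. The only peaks in its window were past its 3′ end, from 1863 to 2204 bp after the start, at the start of SPC1, a signal peptidase subunit. They were present in 4 libraries, 2 of each configuration, with folds of 1.34 to 1.62. With SUL1, it was 1 of the 2 genes that had no start peak in any library.

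MET14 (YKL001C, chromosome XI, 438777 to 439385, minus strand) encodes adenylylsulfate kinase, the second step of sulfate activation. It lies on the chromosome that hosts the insert in the integrated strains, where the insertion point is not given in the sources used here. Its start peak had a summit between 30 bp before and 123 bp after the start, with folds of 1.57 to 1.97 and pileups of 147 to 202 reads. The upstream end lay 100, 481, 207 and 103 bp before the start in HPRT1 YAC replicates 1 and 2 and HPRT1R YAC replicates 1 and 2. In the integrated libraries it lay 481 and 446 bp before the start with HPRT1 and 455 and 158 bp before it with HPRT1R. Thus 3 of 4 integrated peaks and 1 of 4 YAC peaks began over 400 bp upstream, and the configurations overlapped.

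A second peak lay past the 3′ end of MET14, in the start window of DID4, a gene of endosomal sorting that converges on MET14. It was 212 to 1352 bp wide. In HPRT1 YAC replicates 1 and 2 and HPRT1R integrated replicate 1 it lay wholly inside DID4, past the DID4 start. In the other libraries it covered the DID4 start. Its end toward MET14 lay 1024 to 1061 bp after the MET14 start in the YAC and 926 to 939 bp after it in the integrated libraries. The share of genes whose 3′ neighbour differs in this way was not computed. Both peaks add to the coverage of the gene and its flanks. That coverage was 35.1 and 43.8% with the HPRT1 YAC, 31.7 and 38.2% with the HPRT1R YAC, 58.9 and 68.6% with integrated HPRT1 and 62.7 and 42.0% with integrated HPRT1R. The mean was 37.2 ± 5.12% (SD, n = 4) with the YAC against 58.05 ± 11.5% (SD, n = 4) integrated, and 1 integrated library fell within the YAC range.

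The difference of −20.9 percentage points at MET14 (SE 5.33, limma) was the largest of the 10 genes. Its unadjusted p was 0.00685 and its adjusted p 0.228. Over the alternatives tried it ranged from −28.3 to −11.5 points, with adjusted p from 0.107 to 0.540. The value nearest to 0 came with flanks of 250 bp, which leave out the peak at DID4 and also cut off the start peaks that began farther upstream.

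MET16 (YPR167C, chromosome XVI, 876847 to 877632, minus strand) encodes the reductase that turns activated sulfate into sulfite. It is divergent from NUT2, a gene of the Mediator complex, whose start is 443 bp away. The summit of the strongest peak in its window lay in NUT2 in 8 of 8 libraries, with folds of 2.88 to 4.46 at the 96.8th to 99.5th percentile and pileups of 301 to 404 reads. In each library it had the highest fold among the peaks of the 10 genes. In 5 libraries this peak ended 170 to 189 bp before the MET16 start, and a second one began 32 or 33 bp after it. Only the stretch between these 2 ends, across the MET16 start, lay under no peak. In HPRT1 YAC replicate 2, HPRT1 integrated replicate 2 and HPRT1R YAC replicate 1, 1 peak ran through from NUT2 to the downstream gene MRP2.

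Where it stood apart, the peak inside MET16 had its summit 716 to 754 bp after the start, near the 3′ end of this 786 bp gene and close to MRP2, a gene of the mitochondrial ribosome. Its folds were 2.101 to 2.501. In every library the NUT2 peak ran past the far end of NUT2 and also overlapped the start window of another gene, JIP5. Its upstream end lay 1302 to 1309 bp before the MET16 start in the YAC and 1313 to 1457 bp before it in the integrated libraries. These did not overlap, which was so for 4.01% of genes tested, and the difference of 73.8 bp (SE 36.8, limma) had an unadjusted p of 0.0935 and an adjusted p of 0.869. Without HPRT1 integrated replicate 1 it was 44.5 bp, with each library centred on its median 21.8 bp, and with 100 bp of overlap asked for it turned to −332 bp. Coverage of MET16 was 67.6 to 98.9% with the YAC and 86.6 to 99.3% integrated. The lowest values were 67.6% in HPRT1 YAC replicate 1 and 77.3% in HPRT1R YAC replicate 2, where the inner peak ended at 909 and 837 bp. In the integrated libraries that had the gap it ended at 1254 to 1272 bp. HPRT1R YAC replicate 2 alone had a further peak, from 1029 to 1271 bp after the MET16 start, with a fold of 1.92 and its summit in MRP2.

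MET5 and MET10 encode the catalytic subunits of sulfite reductase, which makes sulfide. MET5 (YJR137C, chromosome X, 678957 to 683285, minus strand) had a narrow peak right at its start, with a summit 25 to 74 bp after it and folds of 1.61 to 2.04. It ended 137 to 205 bp into the gene in all 8 libraries, so that the rest of the 4329 bp gene carried no peak. The upstream end was 229 to 266 bp before the start in 7 libraries and 37 bp before it in HPRT1 YAC replicate 1. A separate peak past the 3′ end, at the start of TTI2, was found in 8 of 8 libraries with folds of 2.00 to 2.74.

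MET10 (YFR030W, chromosome VI, 213312 to 216419, plus strand) had a broader start peak. It began 116 to 233 bp before the start in all 8 libraries and ended 410 to 515 bp after it in 7, with folds of 1.74 to 2.17 in those 7. In HPRT1R YAC replicate 1 it ran only from 182 to 14 bp before the start, with a fold of 1.32 at the 0.992th percentile. The summit moved between libraries within this plateau, from 98 bp before to 305 bp after the start. No other gene lay under the MET10 peak, and its body beyond 515 bp had no peak in any library.

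MET6 (YER091C, chromosome V, 339864 to 342167, minus strand) encodes methionine synthase, which methylates homocysteine without cobalamin. A weak peak lay inside the gene, with a summit 97 to 186 bp after the start, in 7 libraries. The folds were 1.77 and 1.61 with the HPRT1 YAC, 1.52 in HPRT1R YAC replicate 2, 1.35 and 1.34 with integrated HPRT1, and 1.44 and 1.495 with integrated HPRT1R. Within their own libraries the 3 YAC peaks stood at the 6.44th to 28.7th percentile and the 4 integrated ones at the 0.56th to 5.27th. HPRT1R YAC replicate 1 had no such peak. Folds of separately called lists were not tested against each other.

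Upstream of MET6, a stronger peak with folds of 1.76 to 2.79 lay over IES5, a divergent gene of the INO80 remodeller, and the gap between both genes. Its summit lay inside IES5, 986 bp before the MET6 start, in HPRT1R YAC replicate 1. In every other library the summit lay in the gap, 333 to 466 bp before the MET6 start. The peak ended 181 to 232 bp before the MET6 start and touched the start window in 3 libraries. In HPRT1R YAC replicate 1 it was the only reason why MET6 counted as having a start peak.

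MET28 (YIR017C, chromosome IX, 383556 to 384119, minus strand) encodes a leucine zipper protein that helps Met4 and Cbf1 bind the promoters of sulfur genes. A single wide peak covered its start and that of YAP5, the divergent gene of an iron-responsive transcription factor, in all 8 libraries. It ran from 872 to 1114 bp before to 271 to 489 bp after the MET28 start, with a summit 464 to 624 bp before it, in YAP5 or just ahead of the YAP5 start. Its folds were 2.103 to 3.63 at the 71.4th to 91.5th percentile. Coverage of MET28 was 50.7 to 63.3% with the YAC and 49.4 to 54.2% integrated, and the ranges overlapped.

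**Figure D3:**
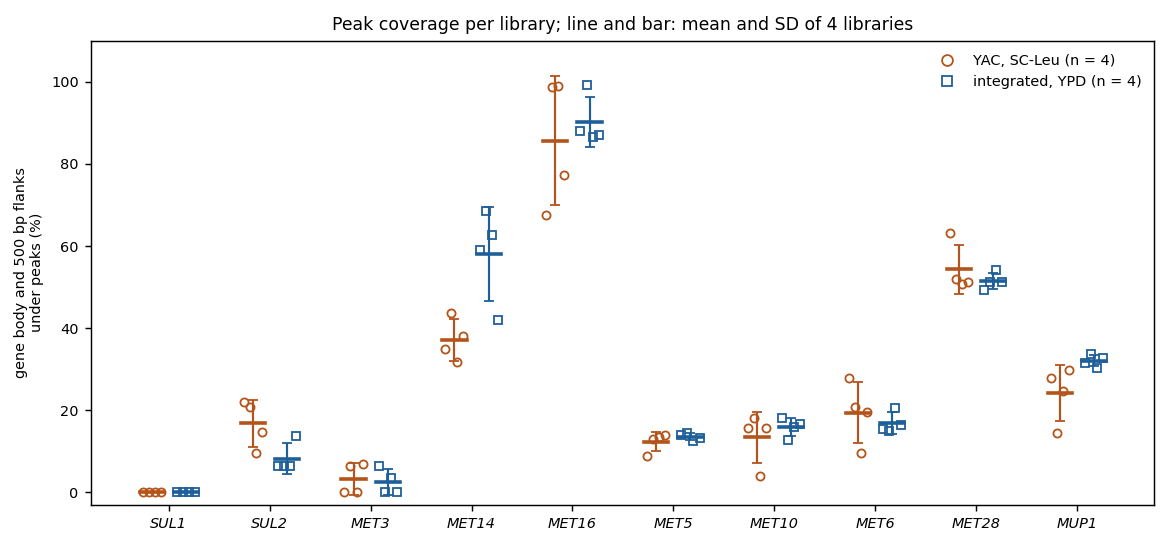
Percent of each gene body with its 500 bp flanks under H3K4me3 peaks, 1 symbol per library, with the mean (line) and SD (bar) of 4 YAC (circles) and 4 integrated (squares) libraries. MET14 is at 31.7 to 43.8% with the YAC and 42.0 to 68.6% integrated, MUP1 at 14.5 to 29.8% and 30.4 to 33.7%, and SUL1 at 0% in every library.

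The YAC and integrated libraries were then compared over all genes, with the sequence as a further term in limma. For coverage of the gene and its flanks, 0 of the 9 genes that could be tested passed an adjusted p under 0.05, against 0.546% of 5490 genes (30 genes, of which 24 were lower with the YAC, or 16 of 24 when each library was centred on its median). SUL1 was left out because its value was 0 throughout. At an unadjusted p under 0.05 there were 2 of 9, MET14 and SUL2, against 11.2% of all genes. By an exact permutation test per gene MUP1 alone of the 9 had an unadjusted p under 0.05, against 7.36% of all genes. That p is the smallest that 4 against 4 can give, and its adjusted value was 0.388, so that after adjustment this test passed 0 genes and tells nothing of any of them.

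SUL2 had the largest difference toward higher coverage with the YAC. It was 22.1 and 20.8% with the HPRT1 YAC, 9.53 and 14.7% with the HPRT1R YAC, 6.52 and 6.36% with integrated HPRT1, and 6.36 and 13.8% with integrated HPRT1R. The groups overlapped, and the difference was 8.53 percentage points (SE 3.23, limma, adjusted p = 0.409). It was 3.24 points when only peaks with a −log10 q of at least 5 were used and 2.89 points with flanks of 1000 bp. Without HPRT1R YAC replicate 1 it was 10.9 points.

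For MUP1 coverage was 27.8 and 14.5% with the HPRT1 YAC, 24.6 and 29.8% with the HPRT1R YAC, 31.6 and 33.7% with integrated HPRT1, and 30.4 and 32.6% with integrated HPRT1R. Every YAC library was below every integrated one, as was so for 6.41% of genes tested. The difference was −7.87 points (SE 3.34, limma, unadjusted p = 0.0537, adjusted p = 0.455), and −4.51 points without HPRT1 YAC replicate 2. MET3, MET16, MET5, MET10, MET6 and MET28 had differences between −4.58 and 2.83 points, with adjusted p of 0.786 or more. The median difference was −1.15 points over the 9 genes, with 4 higher and 5 lower with the YAC, and −1.30 points over all genes, of which 67.0% were lower. With each library centred on its median these medians turned positive, 1.04 points over the 9 genes (5 higher and 4 lower) and 0.901 points over all genes, of which 41.5% were lower, while SUL2, MET14 and MUP1 kept their signs.

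For peak ends, 7 of the 10 genes could be tested, those with a start peak in all 8 libraries. None passed the adjustment in limma, 0 of 7 for the downstream end against 0.276% of 3991 genes and 0 of 7 for the upstream end against 0.175%. At an unadjusted limma p under 0.05 there were 0 of 7 for either end, against 6.34% of genes for the downstream and 5.49% for the upstream end. By the exact permutation test the unadjusted p was under 0.05 for the downstream end of MUP1, against 4.56% of genes, and the upstream end of MET16, against 4.01%. For coverage of the start window, a measure added after the data were seen, 0 of 8 genes passed against 0.628% of 4777. There limma had an unadjusted p under 0.05 for SUL2, 1 of 8 against 8.83% of genes, and the permutation test for SUL2 and MUP1, 2 of 8 against 4.9% of genes.

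Whether the difference between configurations depended on the sequence was also tested. No gene of the 9 passed in limma, against 0.0546% of 5490 genes (3 genes), and SUL2 was the only one of the 9 with an unadjusted p under 0.05, which 10.8% of genes had. Its YAC minus integrated difference in coverage was 13.0 points smaller with HPRT1R than with HPRT1 (SE 4.23, unadjusted p = 0.0252, adjusted p = 0.374). It was −0.0136 points when only peaks with a −log10 q of at least 5 were used, which leaves out the weak inner peaks. The HPRT1 YAC libraries were the 2 highest at SUL2.

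**Figure D4:**
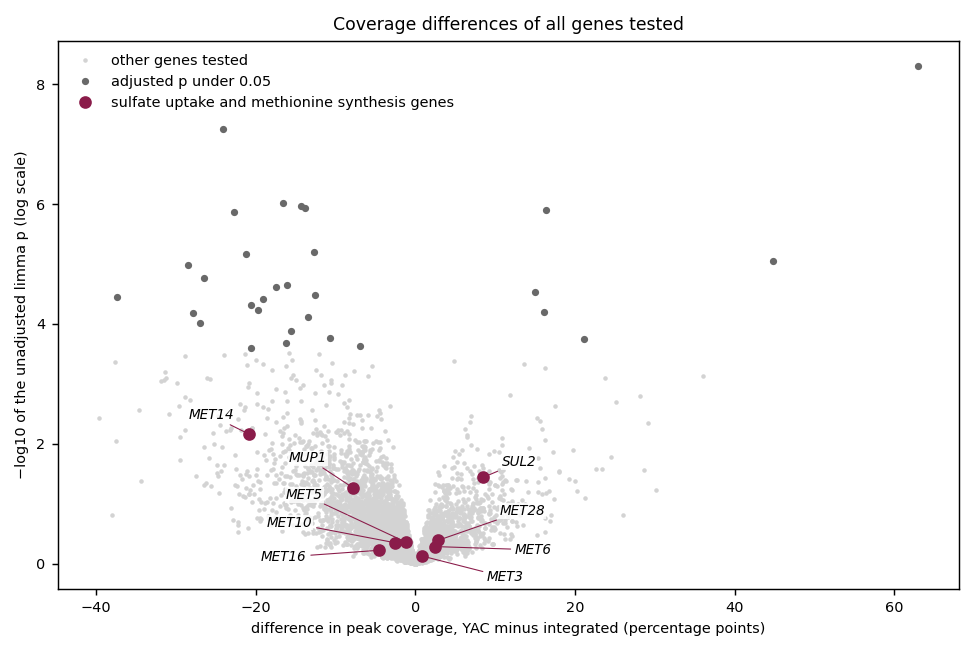
Difference in peak coverage, YAC minus integrated, in percentage points against −log10 of the unadjusted limma p for 5490 genes (grey), with the 30 that passed the adjustment (dark) and 9 of the 10 genes described here (red). MET14 at −20.9 points and SUL2 at 8.53 points lie within the spread of genes that did not pass.

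Other genes of sulfur metabolism were counted in the same way. Of 33 further genes listed by role, 20 (60.6%) had a start peak in 8 of 8 libraries, against 66.5% of all genes, and 8 (24.2%) in none, the deleted MET17 among them, against 14.8%. Of the 28 that could be tested for coverage in limma 0 passed, against 0.546% of all genes, and 6 had an unadjusted p under 0.05, against 11.2%. Their median difference was −2.07 points, with 10 higher and 18 lower with the YAC.

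The 2 genes of each role with the largest differences in coverage are given next, and the signs differed within 5 of the 7 roles. For sulfate assimilation these were MET22, which clears a by-product of sulfate activation, at 9.40 points and MET8, of siroheme synthesis, at −7.32. For homocysteine synthesis they were MET2, the homoserine acetyltransferase, at −24.7 and HOM3, aspartate kinase, at 7.41. MET2 was at 17.9 to 46.2% with the YAC and 35.2 to 65.2% integrated, and its adjusted p in limma was 0.399.

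In transsulfuration, STR2 and STR3 were at −9.64 and −5.37 points. The S-adenosylmethionine synthetases SAM1 and SAM2 were at −4.64 (SE 4.41, limma, adjusted p = 0.745) and 5.14 (SE 5.67, adjusted p = 0.78). For both, YAC and integrated libraries overlapped, so that their signs cannot be told apart from the spread among libraries. Of the transporters, MUP3, a low-affinity methionine permease, was at −4.46 and the S-adenosylmethionine permease SAM3 at 3.70. JLP1, which releases sulfite from sulfonates, was at 10.8 points and BDS1, a sulfatase, at −2.15, and the regulators MET4 and CBF1 were at −3.20 and −4.57.

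Across the 8 libraries, the genes whose coverage was most like that of MET14 among 5488 genes were CLD1 and YIL082W-A (Pearson r = 0.958 each) and MPH1 (r = 0.952). They lie on chromosomes VII and IX, and whether likeness to MET14 depends on the chromosome was not tested. The 8 libraries share depth and peak calling between genes, and the values are given as a description.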

How the data were processed

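H3K4me3 was measured by CUT&RUN in 8 libraries. The sample titles, from which groups were taken, call the assay ChIP. The cell line label of HPRT1 YAC replicate 2 reads HPRT1R YAC, against HPRT1 in its title and genotype, and it was kept as HPRT1. The submitters' processing notes name the build sacCer3 and, among other tools, MACS2 2.1.0, Bowtie2 2.2.9 and SAMtools 1.9. The caller's settings were not given in the sources used here.

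The authors deposited 1 peak list per library, holding for each peak a summit offset, a score, the ratio (fold) of observed to expected pileup, and the p-value and q-value, both as −log10. Folds, q-values and scores were not tested between lists, though folds of several lists are printed side by side. In 1 alternative the same cut-off, −log10 q of at least 5, was applied to all lists. Pileups were solved from fold and p as a Poisson tail, with at least 99.7% of native peaks matched within 0.001 in −log10 p and those off by 0.01 or more left out. Gene coordinates are those of RefSeq's R64 table, with strands read from systematic names. No sequence of these genes is printed.

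From the lists were computed, per gene and library, the percent of the gene body and 500 bp flanks under peaks, the percent of the window from 200 bp before to 500 bp after the start, and the outermost ends of peaks overlapping that window. Each was fitted over all genes with limma 3.58.1 (lmFit, eBayes with trend, R 4.3.3), with configuration and sequence as terms, leaving out genes with 1 value throughout and, for ends, genes without a start peak in 8 libraries. Benjamini-Hochberg adjustment was over all genes tested, at 0.05. The fits and pileups were tested on simulated data. Exact permutation tests, other flanks, thresholds, overlaps and filters, centring and leaving out each library were tried as alternatives.

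Named are the 10 genes, their neighbours that share a peak, MET17, per role the 2 other sulfur genes with the largest absolute coverage difference, and the 3 genes most like MET14. The genes and lists were chosen with earlier results of these data known.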

Additional observations from a re-analysis of the deposited data

Results flagged for a closer look

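Of 48 sets of 4 libraries, 12 held a library whose gap to the nearest other exceeded the 95% critical value of Dixon's test. For independent, normally distributed values chance alone gives this in about 1 in 20. Coverages and peak ends drawn from the same peaks are not such values. The share of such sets over all genes is not given, so that the count cannot be called high for these genes. The values are given without explanation.

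In coverage of the gene and flanks, SUL2 was at 13.8% in HPRT1R integrated replicate 2, where the other 3 integrated libraries were at 6.36 to 6.52%. MET16 was at 99.3% in HPRT1 integrated replicate 2, against 86.6 to 88.0% in the other 3. MET5 was at 8.86% in HPRT1 YAC replicate 1, against 13.1 to 13.9% in the other YAC libraries. MET28 was at 63.3% in HPRT1 YAC replicate 1, against 50.7 to 52.05% in the other YAC libraries.

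In peak ends, the last start peak of SUL2 ended at −150 bp in HPRT1R YAC replicate 1, which lacks the peak inside the gene. The MET14 start peak began at −158 bp in HPRT1R integrated replicate 2, and that of MET5 at −37 bp in HPRT1 YAC replicate 1. The MET5 peak ended at 137 bp in HPRT1R integrated replicate 1. The MET10 peak ended at −14 bp in HPRT1R YAC replicate 1 and at 410 bp in HPRT1 integrated replicate 2. The MET6 start peaks began at −1154 bp in HPRT1R integrated replicate 1, where the peak over IES5 touched the start window. The MET28 peak ended at 489 bp in HPRT1 YAC replicate 1.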

How the results depend on the processing

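None of the 10 genes passed the adjustment in limma in any of the 5 comparisons under any alternative run. Start peaks in 8 of 8 libraries were found for 7 of them, but for 5 at −log10 q of at least 5 (not MET6 and MET10), 4 with equal peak numbers (not MET6, MET5 and MET14) and 5 with 100 bp of overlap (not MET6 and MUP1). The shares of all genes under these 3 alternatives are not given, so that the drop cannot be called particular to these genes. Counts over all genes moved. Those by the exact permutation test are 0 because its smallest p, with 4 against 4, could not pass the adjustment here. For coverage (30 genes) they were 52 with flanks of 1000 bp, 0 by the exact permutation test and 16 to 50 without 1 library (19 without HPRT1 YAC replicate 2, 16 without HPRT1 integrated replicate 1, 50 without HPRT1R YAC replicate 2). For downstream ends (11) they were 18 without the sequence term, 6 with the replicate block, 0 by permutation and 5 to 21 without 1 library (5 without HPRT1 integrated replicate 2, 21 without HPRT1R YAC replicate 1, 20 without HPRT1R integrated replicate 1). For upstream ends (7) they were 2 with the block, 1 with centred libraries, 0 by permutation, 13 with a peak asked for in 1 library per configuration, and 3 to 25 without 1 library, moving by over 1.5 times for each library but HPRT1 integrated replicate 1 and HPRT1R YAC replicate 2. For dependence on the sequence (3) they were 0 with the block, centred libraries or flanks of 1000 bp, 27 with −log10 q of at least 5, 35 with equal peak numbers or no filter, 13 without trend, 15 with flanks of 250 bp, and 0 to 207 without 1 library, moving by over 1.5 times for each of the 8 (207 without HPRT1R YAC replicate 2). For the start window (30) they were 18 with the block, 17 centred, 0 by permutation and 15 to 40 without 1 library (15 and 18 without HPRT1 integrated replicates 1 and 2). Genes with a start peak only with the YAC (9) were 5 at −log10 q of at least 5 and 9 to 14 without 1 library (14 without HPRT1R YAC replicate 2), and genes with one only in integrated libraries (18) were 11 with equal peak numbers and 21 to 25 without 1 library. The cause was not tested.

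Deviations of same-numbered replicates had correlations of −0.240 to 0.197 between groups, and the numbers were not taken to pair the samples. With 2 libraries per group these correlations cannot show whether same-numbered replicates shared a batch. The block also left 23 genes in coverage. Expected pileups of 76.2 to 98.9 reads limit weak peaks, such as those inside SUL2 and MET6.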
